A study of Mus musculus with 6 samples.

Results

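Adrenergic and muscarinic receptors set the rate and force of the heartbeat, and 9 genes of this system were followed in infarcted mouse hearts with and without Zeb2 in cardiomyocytes. The genes were the beta-adrenergic receptors Adrb1 and Adrb3, the alpha1-adrenergic receptors Adra1a and Adra1b, the muscarinic receptor Chrm2, the G protein alpha subunits Gnas and Gnai2, and the adenylyl cyclases Adcy5 and Adcy6. They were chosen by symbol, but with earlier results of these data known, and all 9 were found among the 38293 genes of the count table. Of these, 8 passed a filter on low counts that left 14746 genes for testing, and Adrb3 did not pass it.

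Noradrenaline and adrenaline act on the beta-adrenergic receptors of cardiomyocytes, which couple to the stimulatory G protein alpha subunit encoded by Gnas. This subunit activates adenylyl cyclase, which makes the messenger cyclic AMP, and cyclic AMP activates protein kinase A. Acetylcholine from the vagus nerve acts on the muscarinic M2 receptor encoded by Chrm2, which couples to inhibitory subunits such as that of Gnai2, lowers cyclase activity and opens a potassium channel. Alpha1-adrenergic receptors couple instead to the Gq family and phospholipase C.

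The count table came from the hearts of 3 mice labelled WT and 3 labelled Zeb2 cKO, each taken 14 days after myocardial infarction (MI), which was induced by tying off the LAD coronary artery for good. The animals were adult male mice of the backcrossed C57BL/6J strain. The methods describe the controls as Zeb2 fl/fl mice, so both groups carried floxed Zeb2 alleles, and the Zeb2 cKO mice carried in addition a Cre recombinase driven by the murine Myh6 promoter, which is active in cardiomyocytes. Deletion was thus directed at cardiomyocytes, whereas the RNA came from whole tissue. The labels assign this tissue to the border of the infarct, while the methods name the remote zone. Neither group had hearts without MI, so receptor levels of uninjured hearts were not analysed here.

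The libraries held between 37288174 and 51136331 counts, of which between 14301225 and 19024394 lay outside the mitochondrially encoded genes. Levels are stated in CPM, with library sizes scaled by the TMM method, or, where genes are compared with each other, in RPKM, which is CPM per kilobase of exon. The group difference is the log2 fold change of Zeb2 cKO against WT with its standard error (SE), tested with the quasi-likelihood method of edgeR and given with Benjamini-Hochberg adjusted p-values over all tested genes. In this test 0 of the 14746 genes passed an adjusted p of 0.05 (0%), while 280 had an unadjusted p under 0.05 (1.90%). In 3 against 3 mice an exact permutation test (two-sided) cannot give a p under 0.1.

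Zeb2 itself was at 61.3, 116.0 and 71.9 CPM in WT replicates 1, 2 and 3 and at 59.6, 72.6 and 66.5 CPM in Zeb2 cKO replicates 1, 2 and 3, the order used throughout. The groups overlapped, and only WT replicate 2 lay clearly above the others. The log2 fold change of Zeb2 was -0.33 (SE 0.25, adjusted p = 0.957, edgeR), and it was -0.0058 without WT replicate 2. The counts cover the whole gene and all cells of the tissue, so the genotypes rest on the labels in every comparison made here.

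WT replicate 2 stood apart from the other libraries, and its values bear on most receptor results. Its summed level of 10 cardiomyocyte markers was 54.1% of the mean of WT replicates 1 and 3. The summed levels of 10 fibroblast and matrix markers and of 12 macrophage markers were 508% and 342% of that mean. Summed cardiomyocyte markers ranged from 33560 to 64520 CPM in WT and from 52970 to 64520 CPM in Zeb2 cKO hearts. Cardiomyocyte markers were thus abundant in all 6 libraries of this heart tissue, with no marker of that list at 0. In whole tissue, fewer cells of a type and less RNA per cell cannot be told apart.

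Per length of exon, the inhibitory and stimulatory G protein subunits and the M2 receptor were the most abundant of the 9 genes, and the adrenergic receptors the least abundant. Over all 6 libraries the mean level was 21.4 RPKM for Gnas (SD 0.54, n = 6), 15.3 RPKM for Gnai2 (SD 0.53) and 12.3 RPKM for Chrm2 (SD 1.90). The cyclases followed with 9.65 RPKM for Adcy6 (SD 2.75) and 4.98 RPKM for Adcy5 (SD 1.46). The adrenergic receptors stood at 1.43 RPKM for Adra1b (SD 0.54), 1.29 RPKM for Adrb1 (SD 0.36) and 1.12 RPKM for Adra1a (SD 0.41).

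In this order the ranges of neighbouring genes did not overlap between Gnas and Gnai2, between Adcy5 and Adra1b, and between Adra1a and Adrb3. All other neighbours overlapped in range. Within libraries, Chrm2 was above Adcy6 in 6 of 6 libraries and Adcy6 above Adcy5 in 6 of 6, whereas Adra1b was above Adrb1 in 4 of 6. The order of the 3 adrenergic receptors depended on the length used. With the longest annotated transcript Adra1a moved from place 8 to place 6 and Adra1b from place 6 to place 8. On that length the mean level was 60.7 RPKM for Gnas and 2.28 RPKM for Adra1a.

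**Figure D1:**
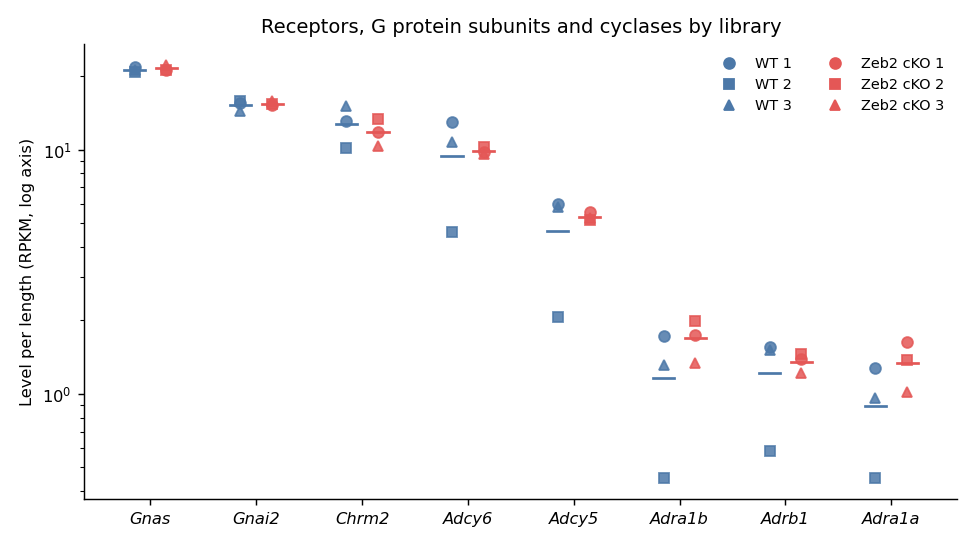
Level per length of the 8 tested genes in each library, in RPKM on a log axis, with WT in blue and Zeb2 cKO in red, symbols for replicates and lines for the mean of 3 mice. The genes run from Gnas, at 20.8 to 22.3 RPKM, to Adra1a, at 0.45 to 1.63 RPKM, and WT replicate 2 is the lowest point for Chrm2, Adcy6, Adcy5, Adra1b, Adrb1 and Adra1a.

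Adrb1 encodes the beta1-adrenergic receptor, the main beta receptor of cardiomyocytes, and lies on the plus strand of chromosome 19 of GRCm38 from 56722199 to 56733113. It was at 5.28, 1.98 and 5.13 CPM in WT hearts and at 4.70, 4.91 and 4.13 CPM in Zeb2 cKO hearts. The 3 Zeb2 cKO libraries lay within the range of the WT libraries, between the low replicate 2 and the other two. The log2 fold change was 0.15 (SE 0.35, 95% confidence interval -0.69 to 0.99, adjusted p = 0.963, edgeR). Without WT replicate 2 it was -0.18 (95% confidence interval -0.49 to 0.12), so that 1 library set the sign of the difference.

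Adrb3, which encodes the beta3-adrenergic receptor known best from adipose tissue, was near the limit of detection. It had 2 counts in WT replicate 1, 2 counts in Zeb2 cKO replicate 1 and 0 in the other 4 libraries, and a count of 0 allows up to 3 counts. Set against that limit of 3 counts per library, the level of Adrb1 per length was at least 28.9-fold higher than that of Adrb3 in WT replicate 2 and at least 65.6-fold higher in each of the other 3 libraries without a count. Where Adrb3 had 2 counts, the ratio was 99.3 in WT replicate 1 (exact 95% confidence interval 27.1 to 826) and 117 in Zeb2 cKO replicate 1 (32.1 to 974). These limits and intervals cover counting error only. A difference between the genotypes in Adrb3 was not detectable at this depth. The 10 adipocyte markers summed to 134.4 to 192.7 CPM in WT and to 178.6 to 235.1 CPM in Zeb2 cKO hearts, 4 of them were tested, all with a log2 fold change above 0 (median 0.37), and Lep, Retn and Ucp1 were at 3 counts or fewer in every library. Their part in the counts of Adrb3 was not tested. Adrb3 shares 17.2% of its longest transcript with an antisense gene that is absent from the count table. The effect of this overlap on so few counts was not tested.

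Adra1a and Adra1b encode the alpha1A- and alpha1B-adrenergic receptors, which both occur in mouse cardiomyocytes. Adra1a was at 11.1, 3.97 and 8.39 CPM in WT hearts and at 14.2, 11.96 and 8.88 CPM in Zeb2 cKO hearts. In 2 of the 3 Zeb2 cKO libraries it was above every WT library, and the third lay between WT replicates 1 and 3. Its log2 fold change of 0.58 was the highest among the 8 tested genes, but its interval included 0 (SE 0.37, 95% confidence interval -0.29 to 1.45, adjusted p = 0.957, edgeR). The exact permutation test gave a two-sided p of 0.2.

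Adra1b was at 5.81, 1.53 and 4.45 CPM in WT hearts and at 5.90, 6.73 and 4.54 CPM in Zeb2 cKO hearts. Here too the groups overlapped, since Zeb2 cKO replicate 3 lay below WT replicate 1. Its log2 fold change was 0.54 (SE 0.44, 95% confidence interval -0.51 to 1.596, adjusted p = 0.957, edgeR). Without WT replicate 2 the log2 fold change fell to 0.26 for Adra1a and to 0.16 for Adra1b. Over the omission of any 1 library it ranged from 0.26 to 0.92 for Adra1a and from 0.16 to 0.94 for Adra1b, above 0 each time. Adra1a lies on the plus strand of chromosome 14 from 66635251 to 66771168 and Adra1b on the minus strand of chromosome 11 from 43774606 to 43901210.

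Chrm2, on the plus strand of chromosome 6 from 36388084 to 36528414, was the most abundant of the 5 receptors. It was at 79.1, 61.7 and 91.1 CPM in WT hearts and at 71.6, 80.9 and 62.4 CPM in Zeb2 cKO hearts. All 3 Zeb2 cKO libraries lay within the WT range. Chrm2 was also the only one of the 8 tested genes with a log2 fold change below 0, at -0.11 (SE 0.18, 95% confidence interval -0.54 to 0.32, adjusted p = 0.957, edgeR). It was -0.25 without WT replicate 2 and 0.03 without WT replicate 3, so that its sign depended on the library left out. A lincRNA on the opposite strand, 9330158H04Rik, overlaps Chrm2 and had 148 to 209 counts per library beside 2706 to 3583 counts of Chrm2. Whether the counting used the strand is not given in the sources used here.

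The G protein subunits varied least among the 8 tested genes. Gnas, on the plus strand of chromosome 2 from 174284320 to 174346744, was at 244.5, 232.7 and 237.2 CPM in WT hearts and at 237.7, 236.6 and 249.3 CPM in Zeb2 cKO hearts. Gnai2, on the minus strand of chromosome 9 from 107614125 to 107635367, was at 58.9, 59.8 and 54.4 CPM in WT hearts and at 57.4, 57.9 and 59.6 CPM in Zeb2 cKO hearts. Both genes are used by many cell types, and neither was low in WT replicate 2, where they stood at 96.6% and 105.6% of the mean of the other 2 WT libraries. The log2 fold change was 0.02 for Gnas (SE 0.13, 95% confidence interval -0.29 to 0.33, adjusted p = 0.991, edgeR) and 0.01 for Gnai2 (SE 0.11, 95% confidence interval -0.24 to 0.27, adjusted p = 0.991, edgeR). These intervals are the narrowest of the 8 genes.

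Adcy5 and Adcy6 encode the 2 adenylyl cyclases known to predominate in cardiomyocytes. Adcy5, on the plus strand of chromosome 16 from 35154877 to 35305738, was at 43.2, 14.9 and 41.8 CPM in WT hearts and at 40.1, 36.9 and 37.7 CPM in Zeb2 cKO hearts. Adcy6, on the minus strand of chromosome 15 from 98589973 to 98610076, was at 87.8, 31.3 and 72.7 CPM in WT hearts and at 66.4, 69.3 and 65.0 CPM in Zeb2 cKO hearts. For both cyclases the Zeb2 cKO libraries lay close together, below WT replicates 1 and 3 and above WT replicate 2.

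Adcy5 had a log2 fold change of 0.20 (SE 0.37, 95% confidence interval -0.68 to 1.08, adjusted p = 0.957, edgeR) and Adcy6 one of 0.07 (SE 0.35, 95% confidence interval -0.75 to 0.88, adjusted p = 0.986, edgeR). Without WT replicate 2 the sign turned in both, to -0.15 for Adcy5 and to -0.26 for Adcy6, where the adjusted p was 0.9997 for each (edgeR). A part of Adcy6, 10.2% of its longest transcript, is shared with an antisense gene.

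**Figure D2:**
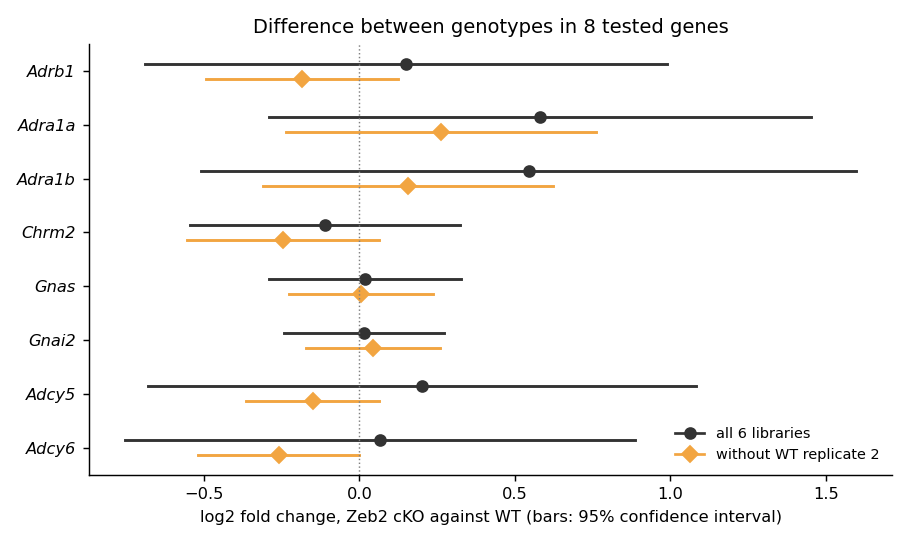
Log2 fold change of Zeb2 cKO against WT for the 8 tested genes, with 95% confidence intervals from edgeR, for all 6 libraries (black) and without WT replicate 2 (orange). Every interval of the 6 libraries includes 0, the points of Adrb1, Adcy5 and Adcy6 cross to the other side of 0 without that library, and the intervals of Gnas and Gnai2 are the narrowest.

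None of the 8 tested genes passed the test, against 0% of all genes tested, and with all 6 libraries none had an unadjusted p under 0.05, against 1.90%. With 1 library left out, Adcy6 reached an unadjusted p of 0.04999 without WT replicate 2 (log2 fold change -0.26, adjusted p = 0.9997, edgeR), where 2.63% of all tested genes were under 0.05. Adra1a reached 0.0414 without WT replicate 1 (log2 fold change 0.92, adjusted p = 0.596, edgeR), where 7.52% were. In none of them did the groups fail to overlap, against 3.39% of all tested genes with every Zeb2 cKO library higher and 2.97% with every one lower. The log2 fold change was above 0 in 7 of the 8 genes, with a median of 0.11 beside -0.0069 for all tested genes. Without WT replicate 2 the median was -0.07, beside 0.0025 for all genes.

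The genes differed in how low they were in WT replicate 2. That library was at 29.7% of the mean of the other 2 WT libraries for Adra1b, 35.0% for Adcy5, 38.1% for Adrb1, 39.0% for Adcy6 and 40.7% for Adra1a. These 5 genes were lower there than the summed cardiomyocyte markers, whereas Chrm2, at 72.4%, was less low than the markers. The part that cell content had in these values was not tested beyond the following ratio.

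Each gene was therefore also set per 1000 counts of the 10 cardiomyocyte markers in the same library, a scale added after the values had been seen. On this scale Chrm2 was at 1.23, 1.84 and 1.53 in WT and at 1.11, 1.44 and 1.18 in Zeb2 cKO hearts, so WT replicate 2 had moved from the lowest to the highest of its group. The log2 difference of Chrm2 was -0.29 on this scale. Adra1a was at 0.172, 0.118 and 0.141 in WT and at 0.220, 0.212 and 0.168 in Zeb2 cKO hearts, a log2 difference of 0.48, and its groups still overlapped, with Zeb2 cKO replicate 3 just below WT replicate 1. Adra1b kept a log2 difference of 0.54. Groups overlapped for all 8 genes on this scale too.

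**Figure D3:**
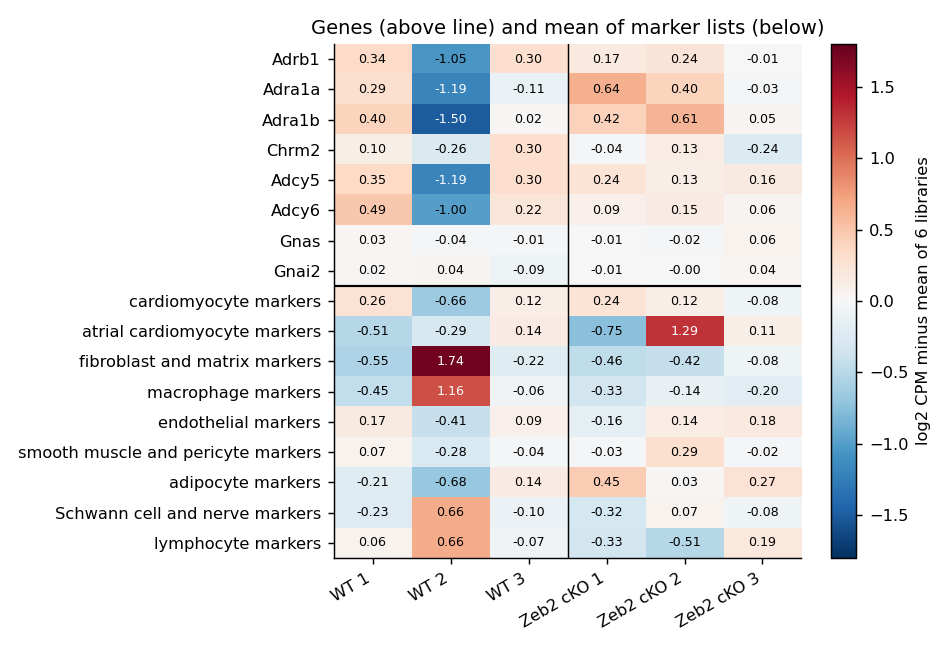
Log2 CPM minus the mean of the 6 libraries for the 8 tested genes (rows above the line) and for the mean of each marker list (rows below it), with 1 column per library and red for higher values. In WT replicate 2 the adrenergic receptors and cyclases lie between -0.997 and -1.498, the cardiomyocyte markers at -0.66, the fibroblast and matrix markers at 1.74 and the macrophage markers at 1.16, while Gnas and Gnai2 stay near 0 in every library.

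Ratios within a library compare 2 subtypes free of the library's depth, and 4 of them were tested between the genotypes per length of exon. The ratio of Adra1a to Adra1b was 0.739, 1.0 and 0.729 in WT hearts and 0.932, 0.688 and 0.757 in Zeb2 cKO hearts, a log2 difference of -0.05 (exact permutation test, two-sided p = 0.7, adjusted p = 0.933 over the 4 ratios). Per length of exon, the alpha1 subtypes were thus at like levels in all 6 libraries. Both this likeness and their order depend on the length used. With the longest transcript the mean levels were 2.28 RPKM for Adra1a and 1.45 RPKM for Adra1b.

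The ratio of Adcy5 to Adcy6 was 0.465, 0.448 and 0.543 in WT hearts and 0.570, 0.503 and 0.548 in Zeb2 cKO hearts. Adcy6 was the more abundant cyclase in all 6 libraries. The log2 difference of 0.16 was larger than the SD of WT (0.15) and of Zeb2 cKO hearts (0.09). The groups overlapped, and the difference did not pass the test (exact permutation test, two-sided p = 0.2, adjusted p = 0.8).

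Gnas to Gnai2, the ratio of stimulatory to inhibitory subunit, lay at 1.31 to 1.47 in WT and 1.38 to 1.41 in Zeb2 cKO hearts. The log2 difference was 0.0029 (exact permutation test, two-sided p = 1.0). The size of this ratio depends on the length used. With the longest transcript the mean levels were 60.7 RPKM for Gnas and 26.2 RPKM for Gnai2. Adrb1 and Chrm2, the receptors through which the sympathetic and vagal nerves act on cyclase, stood at a ratio of 0.120, 0.0579 and 0.101 in WT hearts and of 0.118, 0.109 and 0.119 in Zeb2 cKO hearts. The M2 receptor was thus the more abundant transcript in every library. The log2 difference of 0.37 was below the SD of WT hearts (0.55) and above that of Zeb2 cKO hearts (0.07). It did not pass the test (exact permutation test, two-sided p = 0.4, adjusted p = 0.8) and was 0.06 without WT replicate 2.

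**Figure D4:**
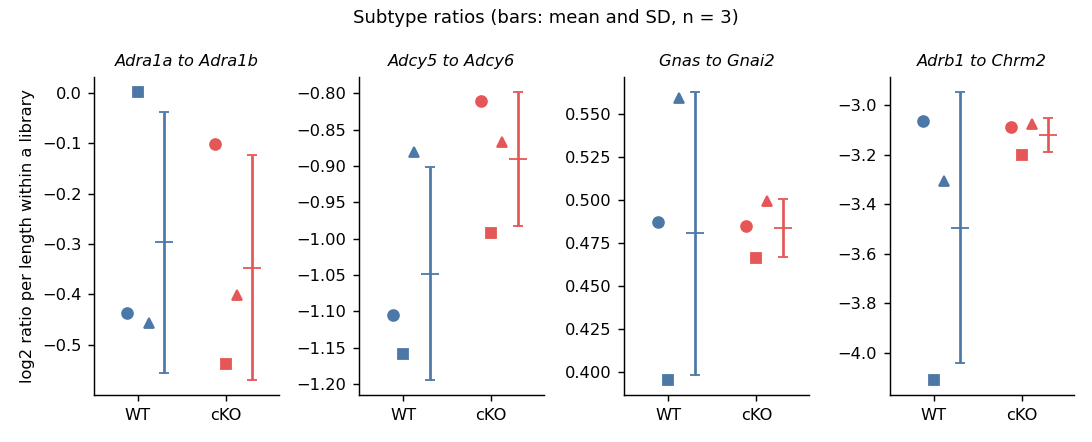
Log2 ratio of 2 genes per length within each library, for 4 ratios, with WT in blue, Zeb2 cKO in red, circles, squares and triangles for replicates 1, 2 and 3, and bars for the mean and SD of 3 mice. The groups overlap in each panel, and WT replicate 2 (blue square) is the lowest point for Adcy5 to Adcy6, Gnas to Gnai2 and Adrb1 to Chrm2 and the highest for Adra1a to Adra1b.

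Other genes of the pathway were taken from lists by role, 113 genes in all, of which 111 were in the table and 98 were tested. Of the 98 genes 0 passed an adjusted p of 0.05, and the median log2 fold change was 0.01. An unadjusted p under 0.05 was found in 3 of the 98 genes, all higher in Zeb2 cKO hearts, against 1.90% of all tested genes. The same 3 genes were higher in every Zeb2 cKO library than in any WT library, against a background of 3.39%. Only 2 genes were lower in every Zeb2 cKO library, against 2.97%, and these were Gnal, a stimulatory subunit best known from olfactory neurons (log2 fold change -0.60), and Prkacb, a catalytic subunit of protein kinase A (log2 fold change -0.08).

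Gnb3, a G protein beta subunit, was at 3.398, 1.504 and 2.943 CPM in WT hearts and at 8.75, 4.77 and 4.91 CPM in Zeb2 cKO hearts. Gnb3 had a log2 fold change of 1.24 (SE 0.37, unadjusted p = 0.0125, adjusted p = 0.957, edgeR) and one of 0.96 without WT replicate 2. Kcnj5 encodes a subunit of the potassium channel that G protein beta and gamma subunits open below the M2 receptor.

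Kcnj5 was at 17.8, 10.6 and 17.6 CPM in WT hearts and at 32.3, 22.3 and 20.6 CPM in Zeb2 cKO hearts. Its log2 fold change was 0.71 (SE 0.26, unadjusted p = 0.0284, adjusted p = 0.957, edgeR), and 0.51 without WT replicate 2. Its partner subunit Kcnj3 had a log2 fold change of 0.23 with overlapping groups, and one of -0.04 without WT replicate 2.

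Kcnj5 and Kcnj3 are known to be more abundant in atrial than in ventricular muscle. Of 6 atrial markers, 5 were tested and 0 passed, Bmp10 was at 0 in every library, and the summed level, ruled by Nppa, was 325.1 to 782.3 CPM in WT and 160.6 to 204.1 CPM in Zeb2 cKO hearts. The median log2 fold change of the list was nevertheless 1.25, because 3 of the 5 genes were above 0. The mean log2 level of these markers was highest in Zeb2 cKO replicate 2 (1.29 above the mean of the libraries). It was lowest in Zeb2 cKO replicate 1 (-0.75), which was the library with the most Kcnj5 and Gnb3. The part of atrial tissue in the levels of Kcnj5 and Gnb3 was not tested.

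Adcy8, a calcium-stimulated cyclase, was the third gene, with only 8, 7 and 4 counts in WT libraries and 16, 13 and 29 counts in Zeb2 cKO libraries. Its log2 fold change was 1.28 (SE 0.41, unadjusted p = 0.0174, adjusted p = 0.957, edgeR). It was 1.29 without WT replicate 2. Among the 7 tested cyclases of the list, Adcy2 had a log2 fold change of -1.46, which rested on 4.19 CPM in WT replicate 2 beside 0.39 to 1.15 CPM in the other libraries, and which was -0.13 without that library.

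**Figure D5:**
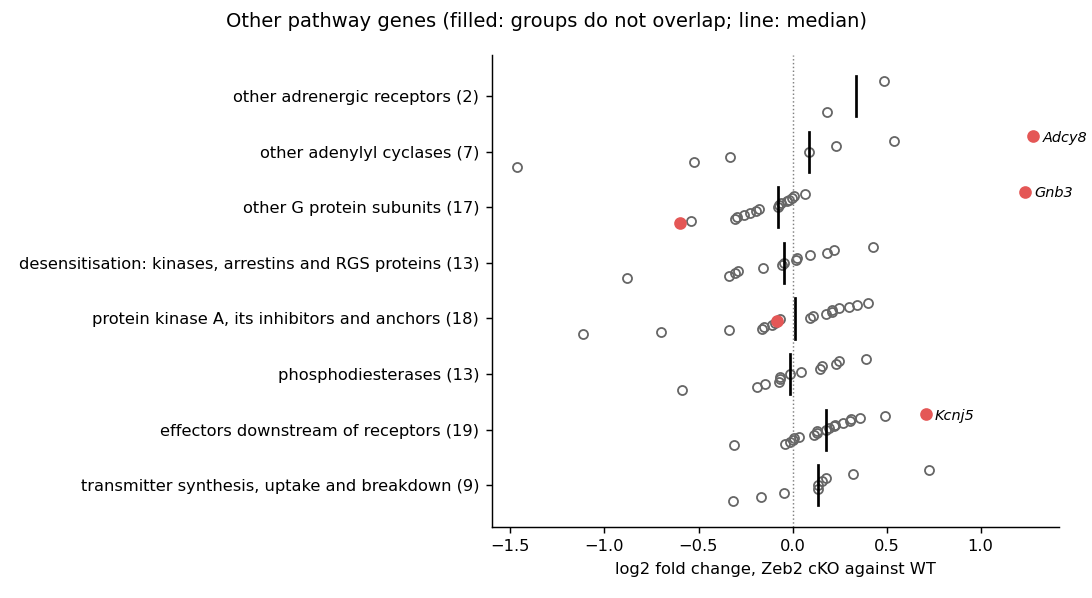
Log2 fold change of Zeb2 cKO against WT for 98 tested pathway genes, in 8 lists by role with the number of genes tested in parentheses; each point is a gene, filled points mark genes whose groups do not overlap and black lines mark the median of a list. Medians lie between -0.08 for the G protein subunits and 0.34 for the other adrenergic receptors, and the 3 named genes lie at 0.71 to 1.28.

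The other adrenergic receptors were scarce. Adra1d, the third alpha1 subtype, and Adra2b, an alpha2 receptor, were tested, with log2 fold changes of 0.49 and 0.19, or 0.09 and -0.06 without WT replicate 2, and Adra2a and Adra2c had 0 to 7 counts per library. Adra1d was at 0.23 to 0.96 CPM in WT and at 0.67 to 1.06 CPM in Zeb2 cKO hearts. Of the other muscarinic receptors 0 of 4 were tested, with up to 19 counts of Chrm3, up to 2 counts of Chrm1 and Chrm4, and 0 counts of Chrm5 in every library. Chrm2 was thus the muscarinic receptor detected at more than 19 counts.

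Receptor desensitisation is carried out by G protein coupled receptor kinases and arrestins, and RGS proteins shorten the active time of alpha subunits. All 13 genes of that list were tested, 6 above and 7 below 0, with a median log2 fold change of -0.05. Rgs4, which acts on inhibitory subunits, was at 21.5, 20.6 and 15.5 CPM in WT hearts and at 15.3, 16.0 and 15.2 CPM in Zeb2 cKO hearts, with a log2 fold change of -0.31 (SE 0.15, unadjusted p = 0.0755, adjusted p = 0.957, edgeR). It was -0.25 without WT replicate 2. Rgs10, known from immune cells, had a log2 fold change of -0.88 that turned to 0.18 without WT replicate 2.

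The G protein subunits other than Gnas and Gnai2 had a median log2 fold change of -0.08, with 14 of 17 tested genes below 0 and a median of 0.02 without WT replicate 2. The list of protein kinase A subunits, its inhibitors, its anchors and other cyclic AMP effectors held 9 genes above and 9 below 0. There, Pkib, an inhibitor peptide, had a log2 fold change of -1.11, or -0.07 without WT replicate 2, and Rapgef4, a cyclic AMP-regulated exchange factor, one of 0.30, or 0.24 without it. The phosphodiesterases, which break down cyclic nucleotides, had 6 of 13 tested genes above 0, and Pde1a and Pde9a were at log2 fold changes of -0.59 and 0.39, or 0.10 and 0.19 without WT replicate 2.

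Effectors such as calcium and potassium channels, phospholamban and phospholipase C had 16 of 19 tested genes above 0, with a median log2 fold change of 0.18. Without WT replicate 2 that median was -0.03. Ppp1r1a, the protein phosphatase inhibitor known as inhibitor-1, was at 6 to 10 counts in WT and 11 to 15 counts in Zeb2 cKO libraries, with a log2 fold change of 0.49 (SE 0.35, adjusted p = 0.957, edgeR).

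Genes of transmitter synthesis, uptake and breakdown had 9 tested members, 6 of them above 0. Ache, which breaks down acetylcholine, had a log2 fold change of 0.72 on 8 to 35 counts (adjusted p = 0.957, edgeR). Th, the rate-limiting enzyme of catecholamine synthesis, had 1 count in all 6 libraries together, and Chat, which makes acetylcholine, had 0. The cell bodies of the nerves that express Th and Chat lie largely outside the ventricle, but the part of this in their counts was not tested. Ddc and Dbh of the same list were detected in every library, with 62 to 143 and 46 to 130 counts. The summed markers of Schwann cells and nerve were 12.7 to 27.1 CPM in WT and 10.9 to 13.8 CPM in Zeb2 cKO hearts, with the highest value in WT replicate 2.

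For each tested receptor, the genes with the most similar profile over the 6 libraries were found by the root mean square difference of log2 CPM, each centred on its own mean, among 14572 genes. They were Atp2a2, the calcium pump of the sarcoplasmic reticulum, and Tbc1d16 for Adrb1 (0.05 and 0.06 on the log2 scale). For Adra1a they were Hopx and Fkbp4 (0.08 and 0.09), and for Adra1b they were Gm17428 and Kcnh2, a potassium channel gene (0.07 and 0.08). For Chrm2 they were Hacd1 and Abt1 (0.05 and 0.07). In the profiles of Adrb1, Adra1a and Adra1b the low value of WT replicate 2 is by far the largest departure from the mean, so likeness to them is weighted towards that library.

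ZEB2 is known as a transcriptional repressor that binds E-box sequences of the form CACCTG, so the RefSeq promoters of the genes (GRCm38.p6, 250 bases before to 50 bases after a gene start) were searched for CACCTG on both strands, which reads CAGGTG on the opposite strand. Promoters were found in the table for Adrb1, Adra1b, Chrm2, Adcy5 and Gnas, 5 of the 9 genes. The letters occurred in 3 of the 4 promoters of Gnas and in none of the promoters of the other 4 genes, beside 20.2% of 32851 promoters in all. The 3 matches in Gnas are 2 distinct sites, since 2 of the promoters overlap, and both sites are shown on the plus strand with the E-box in capitals.
Gnas, chr2:174284160-174284185: tcccgcctgcCACCTGccggcccact
Gnas, chr2:174327778-174327803: cgggttgcttCAGGTGgctggtacca
The first site starts 150 bases before a start of Gnas and the second 20 bases after another. Gnas, the gene with these letters, had a log2 fold change of 0.02, with all 6 libraries between 232.7 and 249.3 CPM. A match of letters is a description of these windows only, and binding was not measured here.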

How the data were processed

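Cardiac tissue of 3 WT and 3 Zeb2 cKO mice was profiled by RNA-seq 14 days after MI. The authors prepared stranded libraries from total RNA depleted of ribosomal RNA, sequenced single-end reads, aligned and counted them on Gencode M4 (GRCm38) with the STAR workflow, and deposited 1 table of raw counts per gene, without normalization. The STAR version, the treatment of reads with several places and the strand option are not given in the sources used here. The DESeq analysis of the authors was not used. All 6 columns of the table belonged to samples of the series, with 0 columns left over.

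From these counts, genes were given symbols and exon lengths from Gencode M21 (GRCm38), which named 14573 of the 14746 genes tested. TMM normalization, filterByExpr, glmQLFit and glmQLFTest were run in edgeR 4.0.16 (R 4.3.3) with genotype as the factor and a prior count of 0.125 for log2 fold changes. Adjustment of p-values was by Benjamini-Hochberg over all tested genes. The common biological coefficient of variation was 0.243. Profiles used log2 CPM with a prior count of 2, and ratios used a pseudocount of 0.5 counts. Shared sequence was sought with BLAST 2.17.0 (Python 3.11.15) for stretches of at least 75 bases at 95% identity. Single values were compared with exact permutation tests, two-sided. At depths of 37288174 to 51136331 counts the spread between mice, rather than counting error, limits all but genes of a few counts. Steps were tested on simulated data.

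The 9 genes, the pathway lists and the marker lists were chosen with earlier results of these data known. Genes named in the text were the 9 genes, Zeb2, the 2 genes of each pathway list with the smallest unadjusted p together with any that passed, and the 2 genes with the profile nearest to each tested receptor. Of these, 1 gene is not reported here. Gnal, Prkacb, Kcnj3, Ddc, Dbh and untested genes were named after their values were seen. Pln is held by the cardiomyocyte and the effector list. For the remaining marker lists, summed levels in WT replicate 2 were 68.9% (endothelial), 65.2% (smooth muscle and pericyte), 71.5% (adipocyte), 211% (Schwann cell and nerve) and 315% (lymphocyte) of the mean of WT replicates 1 and 3. Alternatives covered normalization, filter, DESeq2 1.42.0, robust dispersions, omission of mitochondrially encoded genes, a block for the replicate number, exon length, the pseudocount and the omission of each library. Nothing in the labels says that the replicate numbers 1, 2 and 3, which occur in both groups, mark shared litters or days.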

Additional observations from a re-analysis of the deposited data

How the results depend on the processing

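Over all edgeR alternatives 0 genes were called, and an unadjusted p under 0.05 was reached by 122 to 1134 genes. The Wald test of DESeq2, where 429 genes reached it, called 1 gene, Slc46a2, higher in Zeb2 cKO hearts (log2 fold change 4.201, adjusted p = 0.0382), named here after its values were seen. No tested member or pathway gene was called under any alternative. With the longest transcript as length, 2 genes changed places in the order of levels. Per count of the cardiomyocyte markers, a scale added after seeing the data, the log2 difference was -0.17 for Gnas and -0.18 for Gnai2, both above 0 on the CPM scale with all 6 libraries. The causes were not tested.

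With 1 library left out in turn, the log2 fold change ranged from -0.18 to 0.37 for Adrb1, from -0.25 to 0.0255 for Chrm2, from -0.15 to 0.43 for Adcy5, from -0.26 to 0.36 for Adcy6, from -0.0067 to 0.039 for Gnas and from -0.0262 to 0.0438 for Gnai2, which was -0.0025 without Zeb2 cKO replicate 3. The log2 ratio difference ranged from -0.17 to 0.10 for Adra1a to Adra1b, which was 0.04 without Zeb2 cKO replicate 2, and from -0.0398 to 0.0424 for Gnas to Gnai2, which was -0.0051 without Zeb2 cKO replicate 3. WT replicate 2 was the library whose omission turned Adrb1, Adcy5 and Adcy6. The correlations of same-numbered deviations were 0.09, -0.14 and -0.09, and not every sample correlated best with its own number. With 3 mice per group and WT replicate 2 apart from the rest, these values cannot decide whether the numbers pair the samples. The fit with the replicate number as a block called 0 genes, with a log2 fold change of 0.25 for Adrb1 and 0.66 for Adra1a. Of 222 combinations of result and alternative, 207 kept direction and call.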
